A study of Saccharomyces cerevisiae with 9 samples.

Results

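Ribosome biogenesis factors are the proteins that make ribosomes without staying in them. The 60 described here were taken from a list of gene symbols: every probe set annotated to a listed symbol was looked up, and the brightest per gene was to be kept. All 60 were found, each with 1 probe set, among 5449 genes measured. No factor's probe set was marked by its name as shared with similar transcripts, and all 60 lay above the background level on every array.

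In yeast, RNA polymerase I transcribes a long precursor rRNA in the nucleolus. Small nucleolar RNPs (snoRNPs) guide its chemical modification, a large assembly called the small subunit (SSU) processome forms on its front part, and a separate series of pre-60S particles forms on the rest. Helicases, GTPases and export adaptors then drive the particles to the cytoplasm. The genes for these factors are switched on together in fast growth in glucose and repressed together in stress, through the TOR and protein kinase A pathways.

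The arrays compared BY4742 with LOS1 deleted (3 arrays, cultures 7 to 9) with BY4742 wild type (6 arrays, cultures 1 to 6). BY4742 is a haploid laboratory strain of mating type alpha that lacks working URA3, LEU2, LYS2 and HIS3 genes, and Los1 is a nuclear exportin for tRNA. The titles of the deletion arrays also name URA3, a gene of uracil synthesis. Per the labels' protocols, cells were harvested at an OD600 of 0.5 from rich medium (YEPD) shaken at 225 rpm and 30 °C, and 3 isolates of each strain were used. The wild-type cultures were duplicates, and which of them share an isolate is not given in the sources used here. P-values therefore measure the spread between cultures, part of which may be within an isolate. The stated aim was to look for longevity factors downstream of Los1 in unrestricted medium.

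LOS1 (YKL205W) read 3.65, 2.76 and 3.18 in deletion cultures 7, 8 and 9, under the background level of 4.67, against 10.89 to 11.34 in wild type. URA3 read 10.84 to 10.91 in the deletion and was under background on every wild-type array, at 2.73 to 3.28, so the groups differ by construction at both genes. The 3 markers of mating type alpha lay between 12.13 and 13.97 over the 9 arrays. The 6 markers of mating type a also lay above background, between 5.11 and 7.82. In the limma fit 0 of these 9 markers passed between the groups, and 3 had an unadjusted p under 0.05. Levels here are log2 expression per probe set. Each difference is deletion minus wild type on the log2 scale, after a normalization that sets each transcript against the rest of its array.

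None of the 60 factors passed the test between the LOS1 deletion and wild type (limma across 5449 genes, adjusted p under 0.05). Over all genes, 301 passed, or 5.52%: 2.62% of genes were higher in the deletion and 2.9% lower. At an unadjusted p under 0.05 the count was 2 of 60 factors, KRR1 (higher) and CIC1 (lower), beside 22.0% of all genes (8.85% higher and 13.2% lower). For the same 2 factors the deletion and wild-type arrays were fully apart, as they were for 12.6% of all genes (5.19% higher and 7.38% lower). The factors' differences ran between -0.13 (UTP22) and 0.11 (KRR1), with a median of -0.015, next to a median of -0.012 over all genes. The sign of the factors' median turned to 0.0026 when each array was centred on its median, and was -0.016 after repeated quantile normalization.

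The intervals show, gene by gene, the range of differences compatible with these arrays. They are not adjusted for the number of genes. They also take the 6 wild-type arrays as independent, though these were duplicates of isolates. The 95% interval of the difference lay wholly within 1.2-fold in either direction for 57 of the 60 factors, compared with 65.0% of all genes. The exceptions were UTP20, UTP22 and RRP5, whose lower limits were -0.32, -0.29 and -0.28, and all 60 intervals lay within 1.3-fold. Within 1.1-fold there were 21 of 60. Of the factors, 37 differed by less than 0.05 and 6 by more than 0.1, while 37.8% of all genes differed by more than 0.1. The smallest difference that passed the test anywhere in the table was 0.16 in size, larger than that of any factor. The 60 factors also varied little: their median SD was 0.054 among deletion arrays and 0.068 among wild-type arrays, beside 0.070 and 0.090 for all genes. All 60 were bright, with a lowest value of 10.34, while values over all genes reached down to 2.51. The 127 measured ribosomal protein genes varied less still, with median SDs of 0.021 and 0.033.

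**Figure D1:**
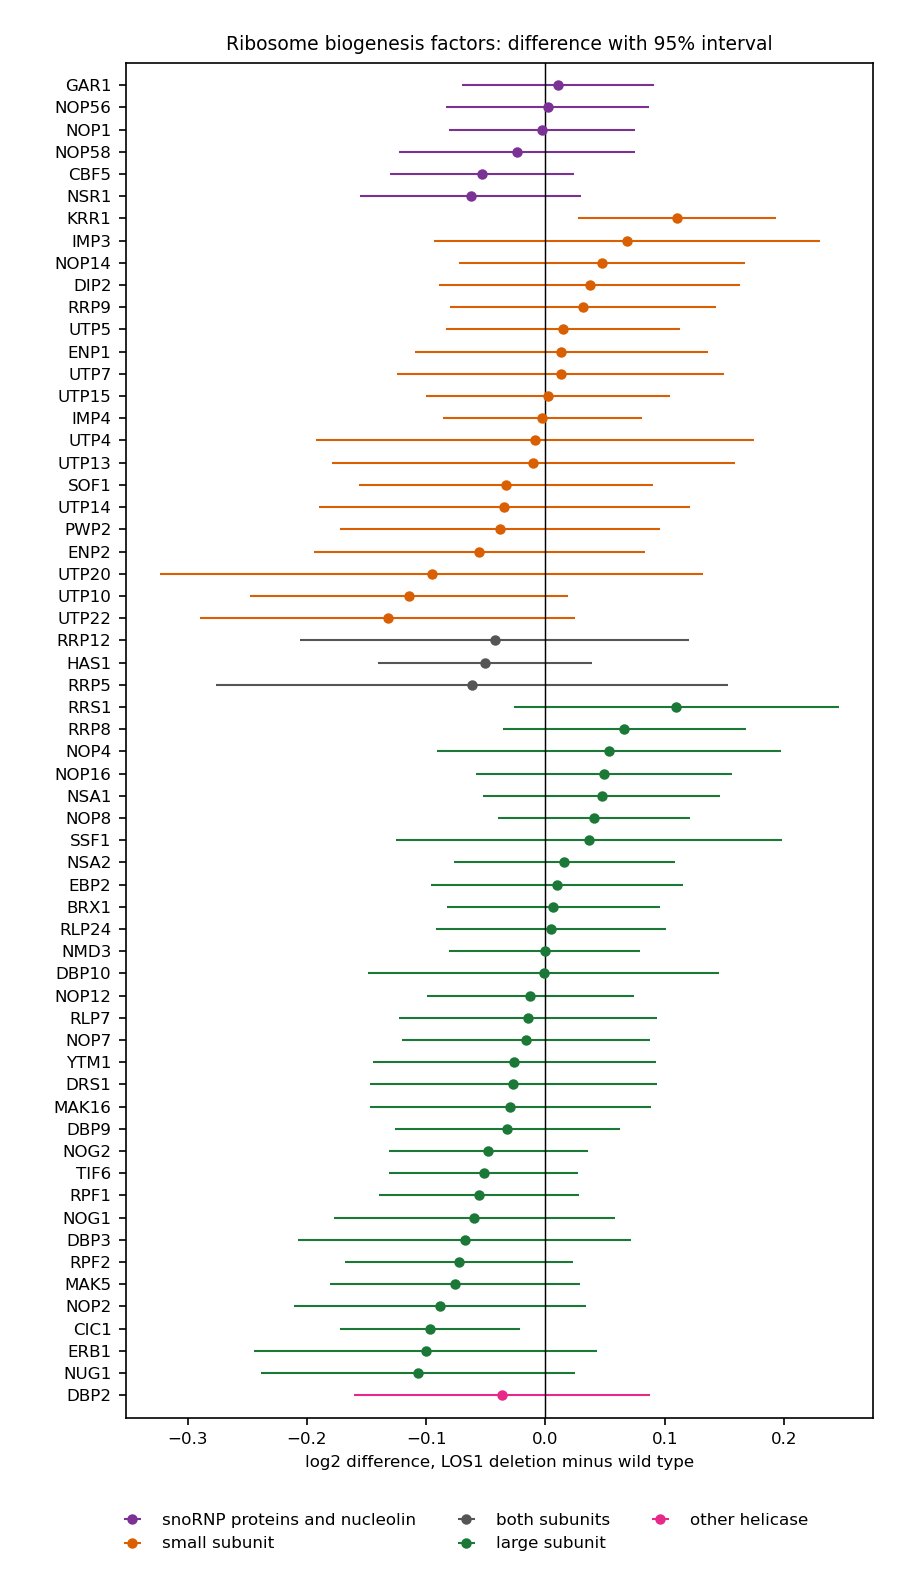
Log2 difference (LOS1 deletion minus wild type, horizontal axis) of each of the 60 factors, coloured by role, with bars for the 95% interval from limma. The points run between -0.13 and 0.11, and the interval leaves out 0 for KRR1 and CIC1 alone, without adjustment for the 5449 genes tested.

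The snoRNPs act early on the precursor rRNA, and 0 of the 6 genes listed with them passed the test. NOP1 (YDL014W), the yeast fibrillarin and the methyltransferase of box C/D snoRNPs, averaged 13.49 ± 0.031 in the deletion and 13.49 ± 0.019 in wild type (SD, n = 3 and 6), a difference of -0.0029 with an interval of -0.081 to 0.075. Its partners NOP56 and NOP58 differed by 0.0018 and -0.024. NOP58 had the brightest probe set of the 60, at 13.74, 13.64 and 13.68 in deletion cultures 7, 8 and 9, against 13.65 to 13.80 in wild type with a median of 13.71. The groups overlapped for all 3 box C/D genes.

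CBF5 (YLR175W), the pseudouridine synthase of box H/ACA snoRNPs, read 13.31, 13.28 and 13.28 in deletion cultures 7, 8 and 9, against a lowest, median and highest wild-type value of 13.30, 13.34 and 13.37. The deletion arrays were at the low end of the wild-type range, and 1 of them lay within it. The difference was -0.053 ± 0.035 (SE, limma adjusted p = 0.406). GAR1, the other box H/ACA protein in the list, differed by 0.010. NSR1 (YGR159C), the yeast relative of nucleolin, read 13.12, 13.06 and 13.14 in the deletion, against 13.10, 13.16 and 13.24 (lowest, median and highest) in wild type. Its groups overlapped, with a difference of -0.063 ± 0.042 (SE, limma adjusted p = 0.414).

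The SSU processome gave the lowest and the highest difference of all. Of its 19 genes, 9 had a difference above 0 and 10 below, with a median of -0.0027. KRR1 (YCL059C), a KH-domain protein of the processome, read 11.84, 11.87 and 11.88 in deletion cultures 7, 8 and 9, against 11.70, 11.74 and 11.81 (lowest, median and highest) in wild type. Every deletion array lay above every wild-type array. The difference was 0.11 ± 0.038 (SE, 1.08-fold), with an interval of 0.027 to 0.19. It did not pass over all genes (limma adjusted p = 0.123), and the exact 2-sided permutation p over the 9 arrays was 0.0119, the smallest that 84 assignments can give. KRR1 was named for its small limma p on the same arrays, so the permutation p is not separate support.

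UTP22 (YGR090W) belongs to the UtpC subcomplex, which also takes part in the CURI complex with a regulator of ribosomal protein genes. Its levels were 11.56, 11.36 and 11.38 in deletion cultures 7, 8 and 9, against 11.39, 11.56 and 11.70 in wild type (lowest, median and highest). Deletion cultures 8 and 9 lay just under the lowest wild-type culture and culture 7 lay in the middle of the wild-type range. Its difference of -0.13 ± 0.071 (SE) had a limma adjusted p of 0.310.

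The UtpA subcomplex is the part of the processome that binds the precursor first. UTP10 (YJL109C), one of its scaffold proteins, read 11.83, 11.65 and 11.89 in deletion cultures 7, 8 and 9, against 11.80, 11.91 and 11.996 in wild type (lowest, median and highest). Culture 8 alone lay under the wild-type range. The difference was -0.11 ± 0.060 (SE, limma adjusted p = 0.302) and -0.045 without culture 8. The other UtpA genes, UTP4, UTP5 and UTP15, differed by -0.0089, 0.015 and 0.0024.

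In the UtpB subcomplex, DIP2, UTP13 and PWP2 differed by 0.037, -0.010 and -0.038. RRP9, a protein of the U3 snoRNP around which the processome is built, differed by 0.032, and SOF1 by -0.033. IMP3 and IMP4, which join U3 to the precursor with Mpp10, differed by 0.068 and -0.0027. ENP1, which stays on for export of the small subunit precursor, and ENP2, a processome protein, differed by 0.013 and -0.055. UTP14, which activates the helicase that removes U3, differed by -0.034, UTP7 by 0.013 and NOP14 by 0.047. The groups overlapped for each of these 12 genes.

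UTP20 (YBL004W), a very large scaffold protein of the processome, varied most of the 60 factors among wild-type cultures, with an SD of 0.18. It read 12.06, 11.82 and 11.98 in deletion cultures 7, 8 and 9, against a lowest, median and highest wild-type value of 11.86, 12.01 and 12.33. Wild-type culture 3 was the high value, and the deletion arrays lay within or just under the wild-type range. The difference was -0.095 ± 0.10 (SE, limma adjusted p = 0.628).

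**Figure D2:**
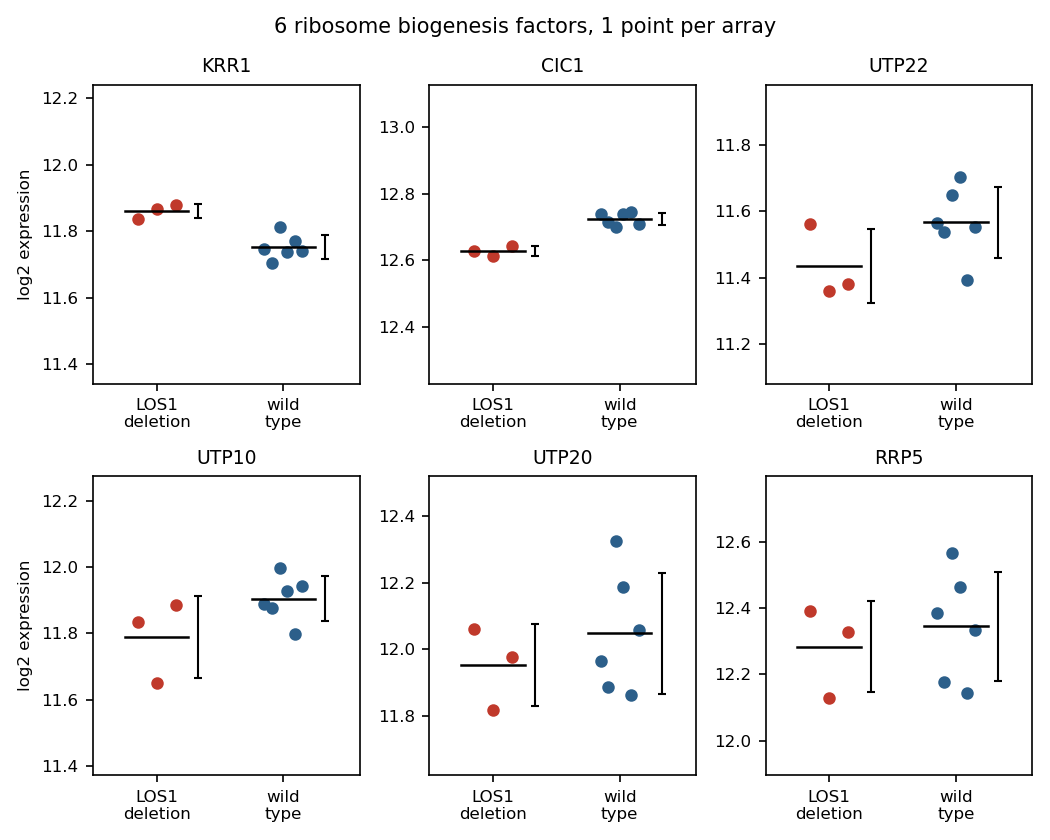
Log2 expression of KRR1, CIC1, UTP22, UTP10, UTP20 and RRP5 on each array (1 point per culture), LOS1 deletion left and wild type right, with a line at the mean and a bar for ±1 SD. All panels span the same log2 range. The groups are apart for KRR1 and CIC1 and overlap for the other genes.

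Among the 3 genes needed for both subunits, RRP5, RRP12 and HAS1, the differences were -0.062, -0.043 and -0.051. RRP5 (YMR229C), an RNA-binding protein used on both sides of the precursor, read 12.39, 12.13 and 12.33 in deletion cultures 7, 8 and 9, against 12.14, 12.36 and 12.57 in wild type (lowest, median and highest). Its SD of 0.16 was the next largest among wild-type cultures after that of UTP20. RRP12 (YPL012W), an export factor of pre-ribosomes, averaged 12.30 ± 0.087 in the deletion and 12.34 ± 0.12 in wild type (SD, n = 3 and 6). The groups overlapped for RRP5 and RRP12, and neither difference exceeded the wild-type SD.

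HAS1 (YMR290C), a DEAD-box helicase, read 12.27, 12.14 and 12.26 in deletion cultures 7, 8 and 9. The wild-type cultures lay between 12.25 and 12.29, the smallest spread of any factor (SD 0.013). Only culture 8 lay outside the wild-type range, and without it the difference was -0.0074. The 6 other DEAD-box helicases in the list, enzymes that unwind or remodel pre-rRNA, were DBP2, DBP3, DBP9, DBP10, DRS1 and MAK5. All 7 differences were below 0, as were 54.7% of those of all genes. They ran from -0.076 (MAK5) to -0.0016 (DBP10), and 0 of 7 passed. DBP10 changed sign in 6 of 15 alternative fits, some of which could not change any factor's difference. DBP10 turned to 0.016 with median centring, and DBP2 to 0.0097 without deletion culture 8. DBP2 (YNL112W), which also acts on mRNA, read 13.05, 12.90 and 13.02 in the deletion, against 12.92, 13.04 and 13.13 (lowest, median and highest) in wild type.

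Of the 31 genes of the large subunit pathway, 11 differed above 0 and 20 below, with a median of -0.016. CIC1 (YHR052W), which binds the second internal spacer of pre-60S particles, read 12.63, 12.61 and 12.64 in deletion cultures 7, 8 and 9, against 12.70, 12.73 and 12.75 in wild type (lowest, median and highest). Every deletion array lay below every wild-type array, with SDs of 0.016 and 0.019. The difference of -0.097 ± 0.034 (SE, 1.07-fold lower) did not pass over all genes (limma adjusted p = 0.131). Its exact 2-sided permutation p was 0.0119, the smallest possible. As with KRR1, CIC1 was named for its small limma p, so the permutation p is not separate support.

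Other proteins at or near that spacer did not share CIC1's separation. RLP7, a ribosomal-protein-like factor, averaged 12.57 ± 0.025 in the deletion and 12.59 ± 0.072 in wild type (SD, n = 3 and 6). NOP7, ERB1 and YTM1, which form one complex, differed by -0.016, -0.10 and -0.026, and the groups overlapped for each. ERB1 was low in deletion culture 8, at 11.88, against 11.96 to 12.19 in wild type, and within that range in cultures 7 and 9.

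The GTPases of the pathway, NUG1, NOG1 and NOG2, differed by -0.11, -0.060 and -0.048. NUG1 (YER006W) read 12.50, 12.32 and 12.52 in deletion cultures 7, 8 and 9, against 12.46, 12.54 and 12.69 in wild type (lowest, median and highest). Deletion culture 8 was again the low array and the other 2 lay within the wild-type range (difference ± SE -0.11 ± 0.059, limma adjusted p = 0.323). The rRNA methyltransferases NOP2 and RRP8 differed in opposite directions, by -0.088 and 0.066, with limma adjusted p = 0.384 and 0.431.

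RRS1 and RPF2 bring the 5S RNP into the large subunit as partners. RRS1 (YOR294W) read 11.77, 11.76 and 11.88 in deletion cultures 7, 8 and 9, against 11.60, 11.67 and 11.82 in wild type (lowest, median and highest), a difference of 0.11 ± 0.061 (SE, limma adjusted p = 0.328). RPF2 differed the other way, by -0.072 (limma adjusted p = 0.359). The groups overlapped for each of the partners. Further Brix-domain proteins, RPF1, BRX1 and SSF1, differed by -0.056, 0.0066 and 0.036.

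The remaining pre-60S assembly factors were spread on either side of 0. NOP4, NOP8, NOP16, NSA1, NSA2 and EBP2 differed by 0.053, 0.041, 0.049, 0.047, 0.016 and 0.010. NOP12 and MAK16 differed by -0.013 and -0.029, and MAK16 (YAL025C) had the dimmest probe set of the 60, at 10.38 to 10.45 in the deletion and 10.38 to 10.58 in wild type. Among genes of the last steps in the cytoplasm, NMD3 and RLP24 were close to 0 and TIF6 was further below it. NMD3, the export adaptor of the large subunit, had levels of 12.77 ± 0.0065 in the deletion and 12.77 ± 0.033 in wild type (SD, n = 3 and 6), and RLP24, which is replaced by Rpl24, differed by 0.0047. TIF6, which keeps the large subunit from joining the small one too early, differed by -0.052 (limma adjusted p = 0.426).

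By position on the chromosomes of S. cerevisiae assembly R64, GAR1 and RPF1 were the only pair of direct neighbours among the 60, which makes 2 of 60 factors next to another (3.33%). Of 6021 protein-coding genes, 1.99% lie next to 1 of the 60. GAR1 and RPF1 differed by 0.010 and -0.056.

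The factors' levels also varied by culture within each strain. Relative to each gene's wild-type mean, the mean of the 60 lay at 0.017, -0.056 and -0.014 in deletion cultures 7, 8 and 9. In wild-type cultures 1 to 6 it lay at -0.025, -0.011, 0.065, 0.023, -0.042 and -0.011. The ranges of the groups overlapped, with deletion culture 8 lowest of the 9, and wild-type cultures 3 and 4 above every deletion array. The mean of all 5449 genes on the same scale was -0.018, -0.035 and -0.0038 in deletion cultures 7, 8 and 9, and 0.027, -0.0091, 0.013, 0.0016, -0.018 and -0.014 in wild-type cultures 1 to 6. Deletion culture 8 and wild-type culture 5 were thus the lowest of their groups over all genes too, while culture 1 was the highest of the wild type there.

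Culture 8 held the lowest of the 3 deletion values for 35 of 60 factors (58.3%), against 41.0% of all genes. Among wild-type cultures, culture 3 was highest for 29 of 60 (48.3%, against 23.5% of all genes) and culture 5 lowest for 27 of 60, against 26.4% of all genes. In culture 3, 51 of 60 factors lay above their wild-type mean. Over the 6 wild-type arrays, the median correlation between pairs of factors was 0.28 (1770 pairs), compared with 0.024 between all pairs of genes. It was 0.42 among the small subunit genes and 0.15 among the large subunit genes. Among 127 ribosomal protein genes it was 0.39, higher than among the factors. These correlations describe 6 arrays that share their normalization.

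**Figure D3:**
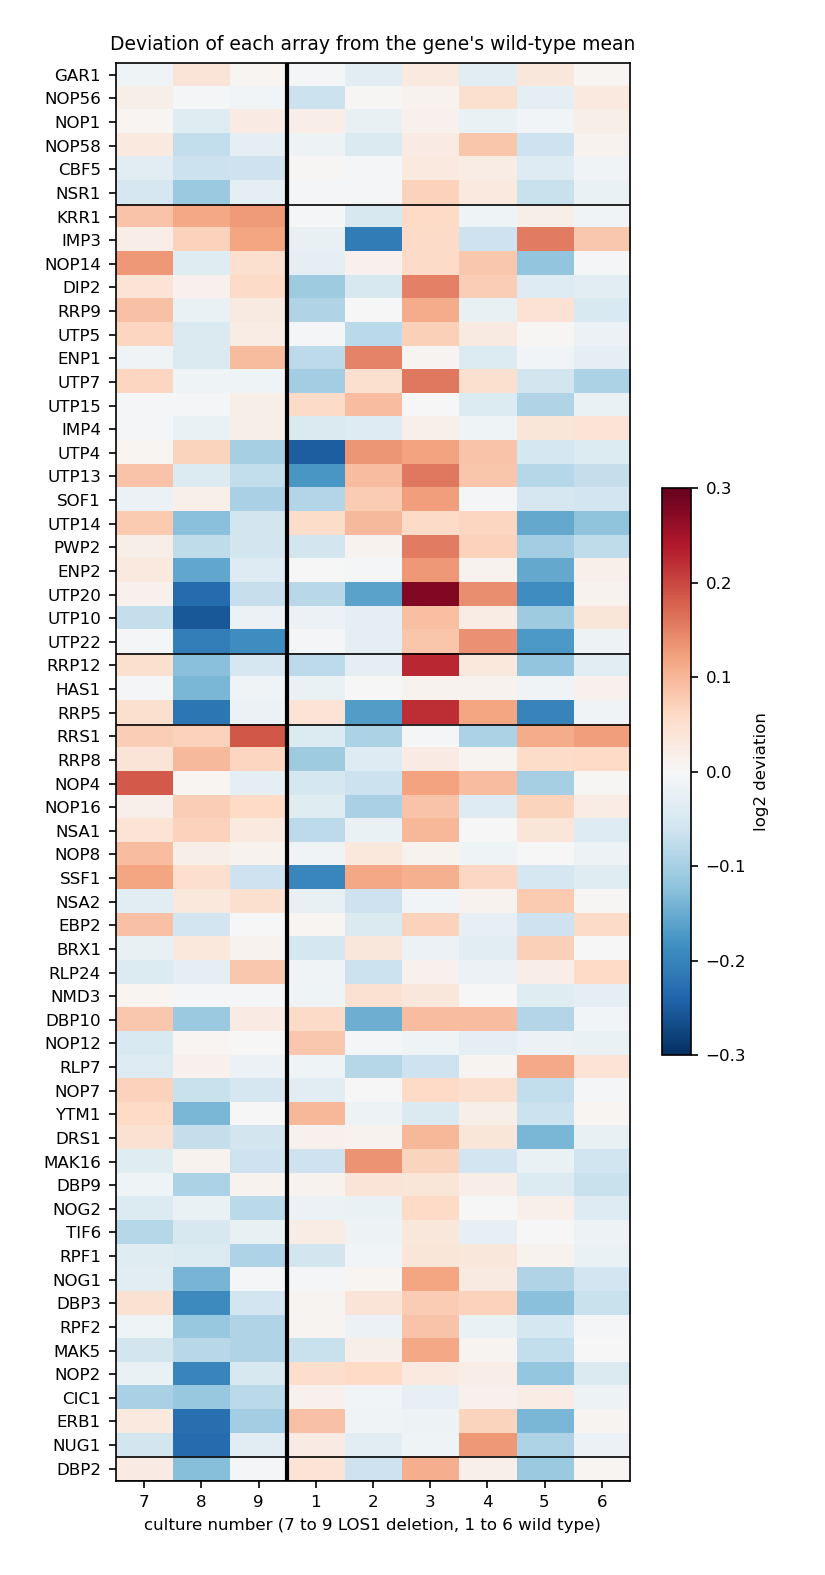
Deviation of each factor (rows, grouped by role) from its own wild-type mean on each array, log2 scale, with deletion cultures 7 to 9 left of the line and wild-type cultures 1 to 6 right of it. Wild-type culture 3 is mostly red (51 of 60 above the mean), wild-type culture 5 and deletion culture 8 are mostly blue (18 of 60 above the mean in each).

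Ribosomal protein genes, which encode the parts that stay in the ribosome, followed the cultures in another order. Their mean over 127 measured genes lay at 0.015, 0.056 and 0.016 in deletion cultures 7, 8 and 9, and at -0.031, 0.011, -0.020, -0.017, 0.035 and 0.021 in wild-type cultures 1 to 6. Culture 8, lowest for the biogenesis factors, was the highest for the ribosomal proteins, and wild-type culture 5 was the highest of the wild-type cultures. Both also had the highest median deviation of their group, at 0.041 and 0.026. Single genes lay far out and moved the means, with deviations up to 1.49 in culture 8 and down to -0.84 in culture 1. None of the 127 passed in the limma fit, and 0 had an unadjusted p under 0.05. Their median difference was 0.020, with 107 above 0 and 20 below (15.7%), beside 54.7% of all genes below. The smallest p was that of RPS10B (YMR230W), with 12.79 ± 0.091 in the deletion and 12.67 ± 0.056 in wild type (SD, n = 3 and 6), a difference of 0.11 (limma adjusted p = 0.233).

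RNA polymerase I and its factors, 15 genes, had a median difference of 0.021 with 0 passing in the limma fit and 0 at an unadjusted p under 0.05. Their mean was at -0.0036, 0.0073 and 0.061 in deletion cultures 7 to 9, and between -0.051 and 0.055 in wild type. RPA49, a subunit of the enzyme, had the smallest p of these genes (-0.096, limma adjusted p = 0.288). Among 27 measured genes of the general stress response, 6 fell and 0 rose, beside 2.9% of all genes lower. Their differences were uneven in size, with 26 of 27 below 0. HXK1 differed most (-1.53, limma adjusted p = 0.0277). CTT1, HSP104, HSP26 and HSP42 differed by -0.051, -0.065, -0.11 and 0.0995 and did not pass. The calls of GPH1 and MSC1 were near the threshold (limma adjusted p = 0.0481 and 0.0414). HXK1, CTT1, HSP104, HSP26, HSP42, GPH1 and MSC1 were named outside the naming rule given below. Their differences were not followed over the alternative fits. YGP1, a secreted glycoprotein, GDB1, the glycogen debranching enzyme, and ALD3, an aldehyde dehydrogenase, fell by 0.62, 0.66 and 0.33 on the log2 scale (limma adjusted p = 0.00258, 0.00300 and 0.0132). ALD3 lost its call after repeated quantile normalization (adjusted p = 0.0725) and without deletion culture 7 or 9. The stress genes' mean was at -0.30, -0.45 and -0.44 in deletion cultures 7, 8 and 9, against -0.13 to 0.21 in wild type, where cultures 1 and 4 were high.

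**Figure D4:**
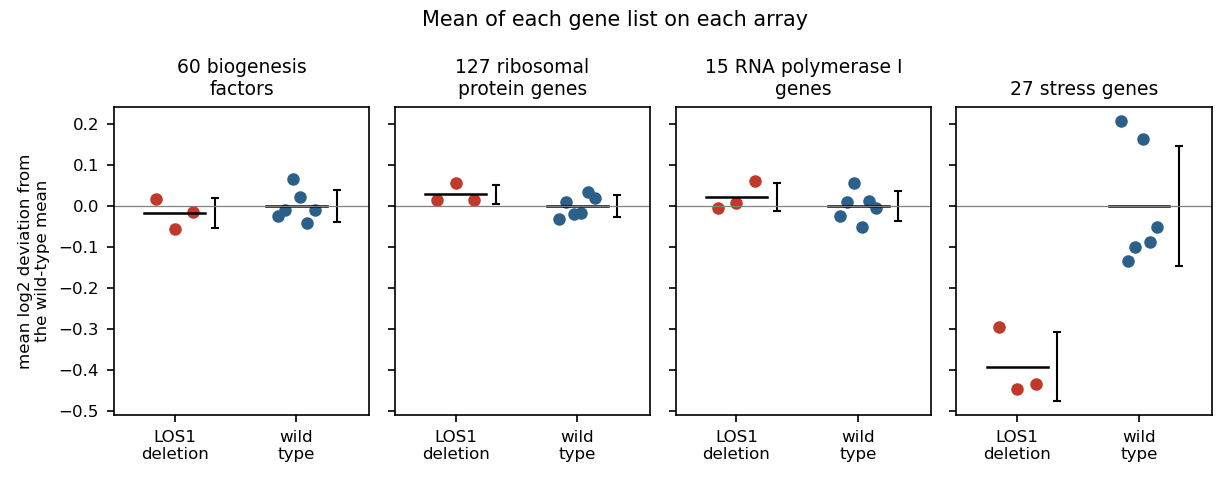
Mean log2 deviation from the wild-type mean on each array for the 60 biogenesis factors, 127 ribosomal protein genes, 15 RNA polymerase I genes and 27 stress genes, LOS1 deletion left and wild type right, with lines at the mean and bars for ±1 SD. The groups overlap for the first 3 lists, and the stress genes lie between -0.45 and -0.30 in the deletion.

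Further genes of the pathway were counted in the same way. Of 134 further factors (51 of the small subunit, 49 of the large subunit, and 34 nucleases, exosome and RNase P or MRP subunits), 0 rose and 1 fell, beside 2.62% and 2.9% of all genes, with a median difference of -0.0010. At an unadjusted p under 0.05 there were 16 of 134, a smaller share than the 22.0% of all genes. The gene that fell was RRP43 (YCR035C), a ring subunit of the exosome, the complex that trims the end of precursor rRNA. RRP43 read 11.33, 11.35 and 11.29 in deletion cultures 7, 8 and 9, against 11.43, 11.48 and 11.58 in wild type (lowest, median and highest), and the groups did not overlap. Its difference of -0.16 ± 0.042 (SE, limma adjusted p = 0.0491) was near the threshold and lost its call in 12 of 15 alternative fits, all 9 that left out an array among them.

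UTP30 (YKR060W), a small subunit factor, lay just outside the threshold. It read 11.19, 11.16 and 11.35 in the deletion, against 11.39 to 11.55 in wild type, and its difference was -0.21 (limma adjusted p = 0.0501). It passed in 3 of 15 alternative fits and under 10 of 15 pairings of the wild-type cultures. NOC3 (YLR002C), a large subunit factor, averaged 11.46 ± 0.097 in the deletion and 11.61 ± 0.044 in wild type (SD, n = 3 and 6), with limma adjusted p = 0.119. Without deletion culture 8 its difference was -0.091.

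Of 25 measured regulators of ribosome production, 1 fell and 0 rose, with a median difference of -0.053. A count of 1 in 25 is close to the 2.9% of all genes that were lower. The gene that fell was DOT6 (YER088C), which encodes a repressor that binds the PAC element of ribosome biogenesis promoters. DOT6 read 10.68, 10.48 and 10.44 in deletion cultures 7, 8 and 9, against 10.70, 10.98 and 11.17 in wild type (lowest, median and highest). Deletion culture 7 lay just under wild-type culture 5, and the groups did not overlap. The difference was -0.43 ± 0.10 (SE, 1.35-fold lower, limma adjusted p = 0.0410). The call was lost in 7 of the 9 fits that left out an array: each deletion array in turn, and wild-type cultures 1, 3, 4 and 6, with adjusted p up to 0.154.

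The related regulators named next were chosen after their values were seen. TOD6, the paralog of DOT6 with the same target element, had a difference of 0.054 (limma adjusted p = 0.648), and STB3, a repressor that binds the RRPE element, had -0.15 (limma adjusted p = 0.282). SFP1 (YLR403W), an activator of ribosome biogenesis genes, averaged 10.99 ± 0.050 in the deletion and 11.19 ± 0.11 in wild type (SD, n = 3 and 6). Its difference of -0.20 did not pass (limma adjusted p = 0.117), but did without wild-type culture 5 and with array weights (adjusted p = 0.0368 and 0.0462). SCH9, the kinase downstream of TOR that acts on DOT6, TOD6 and STB3 proteins, differed by -0.0096. CBF1, a factor that binds centromeres and sulfur gene promoters, had a difference of -0.26 (limma adjusted p = 0.0573), and passed in 3 of 15 alternative fits and under 7 of 15 pairings of the wild-type cultures.

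**Figure D5:**
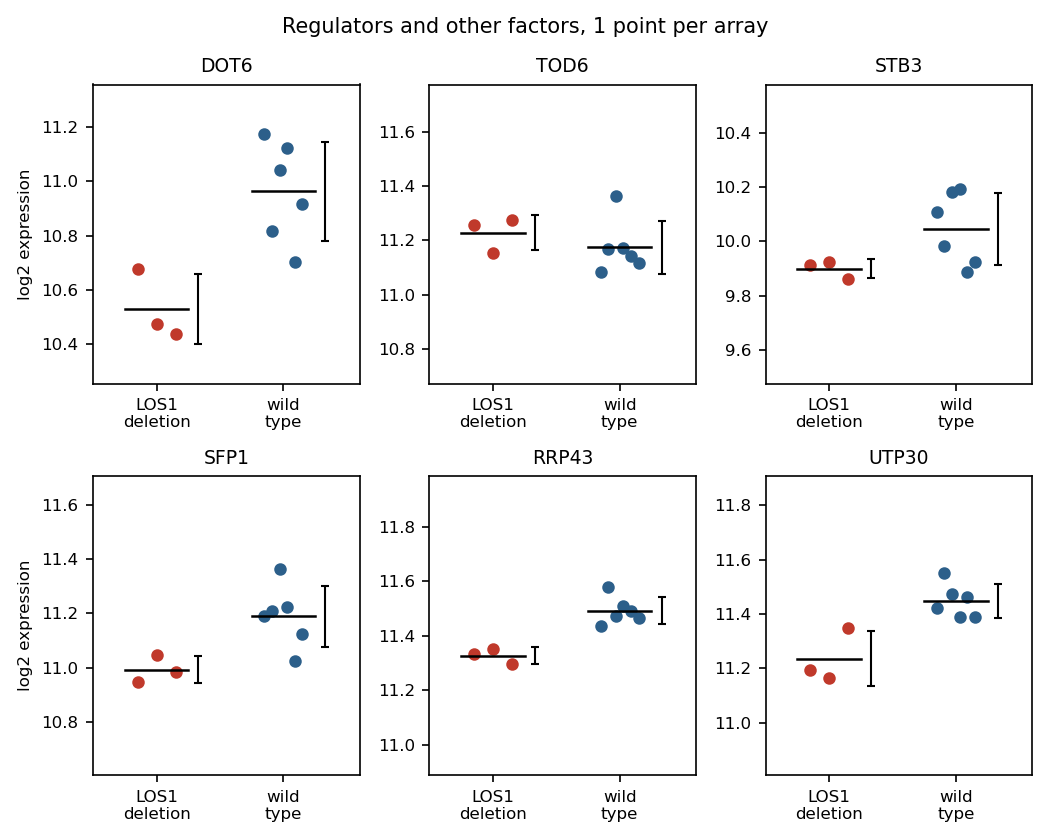
Log2 expression of DOT6, TOD6, STB3, SFP1, RRP43 and UTP30 on each array, LOS1 deletion left and wild type right, with a line at the mean and a bar for ±1 SD. All panels span the same log2 range, and the deletion arrays lie under the wild-type arrays for DOT6, RRP43 and UTP30.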

How the data were processed

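The authors deposited 1 log2 value per probe set and Affymetrix Yeast_2 array. The submitters' processing notes name RMA (version not given in the sources used here), which subtracts background, equalises the arrays' distributions and summarises probes. That equalising hides a change shared by most transcripts.

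Of 10928 probe sets, 7244 named 1 gene, 1 named several and 3683 none. Through gene IDs, 5498 matched S. cerevisiae assembly R64 (12 symbols updated), and the brightest probe set per gene left 5449 genes. The other 1746 named probe sets, taken as S. pombe, set the background level (95th percentile of means, 4.67; 4.68 to 4.74 on single arrays).

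Differences were tested with limma 3.58.1 (lmFit, eBayes, 2-sided) under R 4.3.3. P-values were adjusted over all 5449 genes by Benjamini-Hochberg, with calls at 0.05. The steps were tested on simulated data with independent arrays and planted differences larger than that of any factor. Recovery of differences as small as the factors' was not tested. Exact permutation tests used all 84 assignments of the 9 arrays, taken as exchangeable. The number of arrays limits the precision.

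The members and lists were chosen with earlier results of these data known. All 60 factors were counted. Array values were given by rule for the 3 smallest p per role group, the largest and smallest difference, the brightest and dimmest probe set and the 2 largest wild-type SDs. From each other list the rule took up to 3 genes past the threshold or else the smallest p. The alternatives were median centring, repeated quantile normalization, dropping genes under background, averaging probe sets, array weights, a robust prior that follows intensity (statmod 1.5.0), 15 pairings of the wild-type cultures and leaving out each array. Promoter and protein sequences were not analysed here.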

Additional observations from a re-analysis of the deposited data

Results flagged for a closer look

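Over the 60 factors and 14 other genes, 2 wild-type values stood far from the other 5 cultures by Dixon's criterion for 6 samples. Chance meets that criterion in about 1 in 20 groups, a larger share than 2 of these 74 genes. NOP12, a pre-60S RNA-binding protein, was at 12.14 in wild-type culture 1, where the other wild-type cultures lay between 12.03 and 12.06. RPS10B was at 12.78 in wild-type culture 5, where the others lay between 12.62 and 12.68.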

How the results depend on the processing

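The count of factors past the threshold was 0 in all 15 alternative fits and under all 15 pairings of the wild-type cultures, and the lowest adjusted p of any factor in any of them was 0.0565 (KRR1 with array weights). The factors' median difference lay between -0.038 and 0.00067 when 1 array was left out. Of the 60 factors, 33 kept the sign of their difference in all 15 alternatives and 27 did not. KRR1 and CIC1 were among those that kept it. Dropping genes under background, averaging probe sets and the robust prior could not change any factor's difference. Only the other alternatives could turn a sign. The count over all genes moved more: it was 301, 498 with array weights, 196 to 468 over the pairings, and 126 (without deletion culture 8) to 478 (without wild-type culture 5) when 1 array was left out. The cause was not tested. The median of all genes shifted by -0.0073 to 0.018 over the 15 alternatives. DOT6 passed in 13 of 15 pairings, RRP43 and UTP30 in 10 of 15 each, CBF1 in 7 and SFP1 in 0. RRP43 also lost its call with median centring, repeated quantile normalization and the intensity trend. No paired analysis was possible because the labels link no deletion culture to a wild-type culture.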
